A study of Saccharomyces cerevisiae with 12 samples.

Results

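The 10 genes described here encode the subunits found only in RNA polymerase III of the budding yeast Saccharomyces cerevisiae: RPO31 (YOR116C), RET1 (YOR207C), RPC82 (YPR190C), RPC53 (YDL150W), RPC37 (YKR025W), RPC34 (YNR003C), RPC31 (YNL151C), RPC25 (YKL144C), RPC17 (YJL011C) and RPC11 (YDR045C). They were taken by symbol from the array annotation, each had 1 probe set, and they make up 10 of the 5449 genes measured. Cells in rich medium at 25 °C, in mid-log phase, received 0.3 mM hydrogen peroxide (H2O2), an oxidant, or 0.1% methyl methanesulfonate (MMS), an alkylating agent that damages DNA. Total RNA was sampled at 0, 30, 60, 100, 140 and 180 min of each course, with 1 Affymetrix array per stress and time, 12 arrays in all. The labels used here name no strain, genotype or repeat culture. Arrays were grouped as time 0 (both courses, n = 2), early (30 and 60 min, n = 2 for each stress) and late (100, 140 and 180 min, n = 3 for each stress).

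RNA polymerase III is the nuclear enzyme that makes transfer RNAs, the smallest ribosomal RNA and other short noncoding RNAs. It shares a pair of subunits with RNA polymerase I, which makes the large ribosomal RNAs, and a further set with both other polymerases. Its initiation factors TFIIIB and TFIIIC bring it to its genes, and the repressor Maf1 binds and silences it when cells are starved or stressed. The arrays measured polyadenylated messenger RNA from poly(T)-primed cDNA, that is, the messages for the enzyme's subunits and not the enzyme's activity or its RNA products. A lower value can stand for less message per cell or for a smaller share of all messages, which cannot be told apart here. Values are log2 signals as deposited, on which a difference of 1 is a 2-fold change, and levels of different genes are not compared since probe sets differ in brightness. No sequence of these genes was used here.

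Stress genes named for the treatments rose in both courses. SRX1, sulfiredoxin, which repairs oxidised peroxiredoxins, was at 6.60 log2 above time 0 in the early H2O2 window and 6.62 in the early MMS window, and MAG1, the glycosylase that removes alkylated bases, at 2.13 and 2.13, with no difference called between the stresses for either. CTT1, a catalase, was lower early in MMS than in H2O2, at -2.59 ± 0.64, adjusted p = 0.0409. In the late window MMS exceeded H2O2 by 2.19 ± 0.34 for MAG1 and 4.87 ± 0.59 for SRX1 (limma, mean ± SE, adjusted p = 0.00033 and 8.38e-05). RNR3, TSA2, TRX2 and CTT1 of the same check were called higher in both the early H2O2 and the late MMS windows, HUG1 in the late windows of both stresses, and ACT1, actin, was at 0.02 ± 0.09, adjusted p = 0.878 in the early H2O2 and 0.13 ± 0.08, adjusted p = 0.156 in the late MMS window. Of 10 sporulation and mating genes measured as signs of other cell states, 4 were higher and 5 lower in the late MMS window, where 40.3% of all genes were called higher and 34.6% lower. The arrays at 0 min of both courses differed most for RPC17 among the 10 subunits, by -0.13 log2 (MMS minus H2O2). No batch is given in the labels, and with 1 array per point any array effect cannot be told apart from its time point. The time points of a window stood in for replicates. Every p-value, except those with time point as a replicate block, thus sets a difference against the spread among times of a course. This spread is pooled with that between the 2 arrays at 0 min. No spread among repeat cultures under stress was measured.

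All 10 subunit messages fell after both stresses, with a different course in each. After H2O2 they dropped quickly, 9 of them to their lowest level at 60 min, and then climbed. At 60 min they stood at 25.2% to 62.7% of their 0 min level (median 31.4%), and at 180 min at 68.9% to 102% (median 78.6%). After MMS the fall was slower and all 10 reached their lowest level at 100 min, at 13.1% to 43.4% of 0 min (median 29.1%). At 180 min of MMS they were at 18.1% to 56.5% (median 40.2%). The lowest level of the course was deeper after MMS than after H2O2 for 7 of 10, the exceptions being RPC82, RPC53 and RPC34.

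Counted by array, 5 of 10 were 2-fold or more below their own 0 min array at 30 min of H2O2, against 5.41% of all genes. At 60 min of H2O2 it was 9 of 10 (all genes 8.13%), at 100 min 4 of 10 (3.95%), and at 140 and 180 min 0 of 10 (0.991% and 0.404%). In the MMS course 0 of 10 had fallen that far by 30 min (1.85% of all genes), 9 by 60 min (10.3%), 10 in the 100 min array (15.0%), 10 in the 140 min array (16.9%) and 8 at 180 min (17.8%). These counts compare 1 array with 1 array and carry no test.

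**Figure D1:**
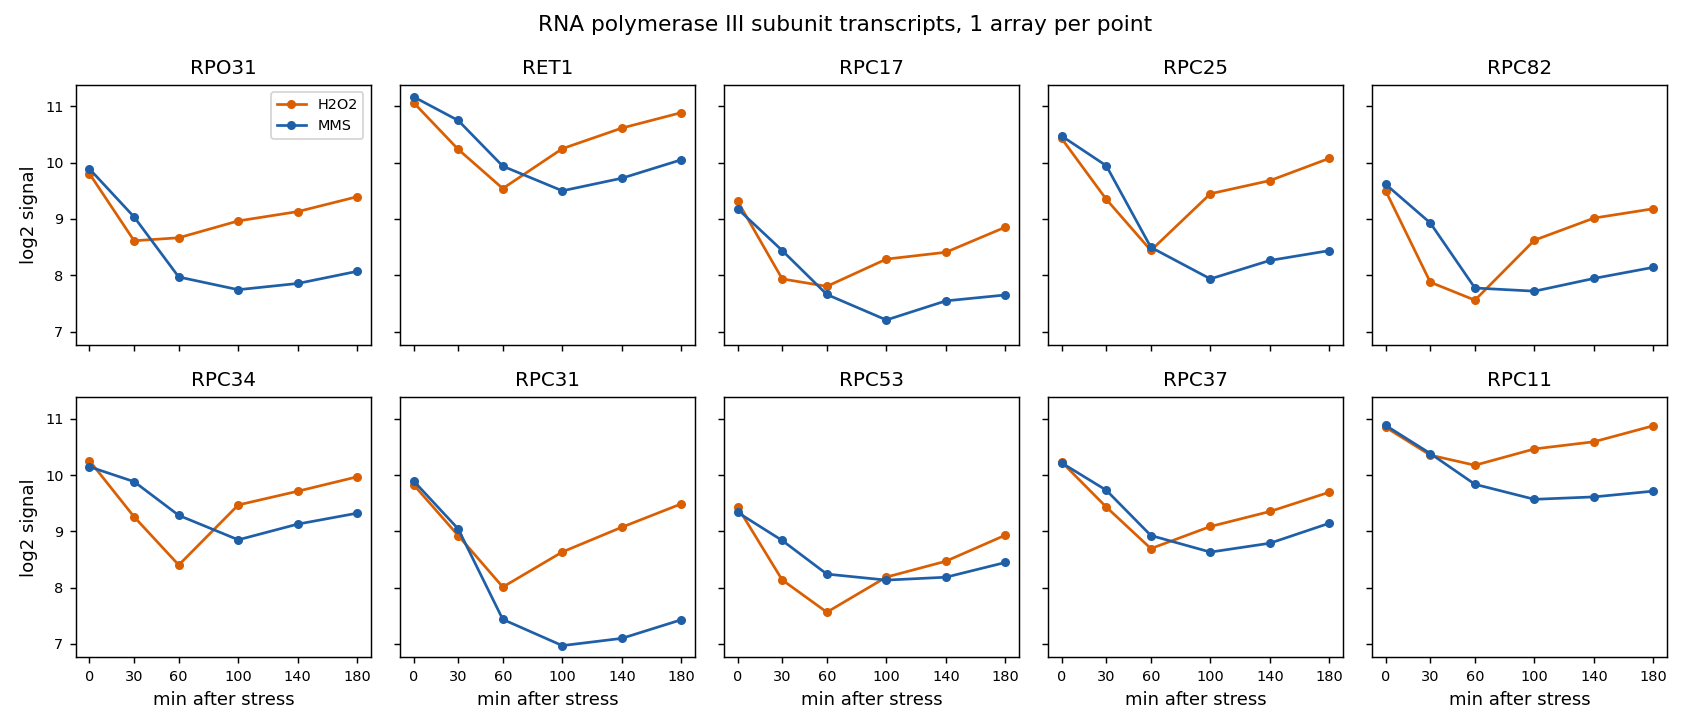
Log2 signal of each RNA polymerase III subunit message (y axis) against minutes after stress (x axis), with 1 array per point, H2O2 in orange and MMS in blue. The H2O2 line turns upward by 100 min in every panel, while the MMS line is lowest at 100 min and lies below the H2O2 line from 100 to 180 min.

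RPO31 and RET1 encode the largest and second largest subunits, which form the catalytic core. RPO31 read 9.81, 8.61, 8.67, 8.97, 9.13 and 9.40 log2 at 0, 30, 60, 100, 140 and 180 min of H2O2. In the MMS course it read 9.89, 9.04, 7.97, 7.74, 7.85 and 8.07 at the same times. It was the 1 member whose lowest H2O2 value came at 30 min. For RPO31, as for every other member but RPC11, each stressed array lay below both 0 min arrays. RET1 read 11.07, 10.24, 9.54, 10.25, 10.62 and 10.89 after H2O2. After MMS it read 11.17, 10.75, 9.94, 9.50, 9.72 and 10.05. The core subunits thus ended the H2O2 course at 75.3% (RPO31) and 88.3% (RET1) of their 0 min level and the MMS course at 28.3% and 46.0%.

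RPC17 and RPC25 encode the stalk, a pair of subunits that reaches out from the core and takes part in initiation. RPC17 read 9.32, 7.93, 7.80, 8.29, 8.41 and 8.85 across the H2O2 times. Across the MMS times it read 9.18, 8.44, 7.66, 7.20, 7.54 and 7.65. RPC25 read 10.43, 9.35, 8.44, 9.45, 9.68 and 10.08 after H2O2 and 10.47, 9.95, 8.50, 7.94, 8.26 and 8.44 after MMS. RPC25 had the deepest value of all members at 60 min of H2O2, at 25.2% of its 0 min level, and was at 17.2% at 100 min of MMS.

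RPC82, RPC34 and RPC31 encode a 3-subunit complex, found in no other polymerase, that helps open the promoter, and Rpc34 contacts TFIIIB. RPC82 read 9.50, 7.88, 7.56, 8.62, 9.02 and 9.18 in the H2O2 course. Its MMS values were 9.62, 8.93, 7.77, 7.72, 7.94 and 8.14. It was the lowest of the 10 at 30 min of H2O2, at 32.4% of 0 min. RPC34 read 10.26, 9.26, 8.40, 9.47, 9.71 and 9.97 after H2O2. It read 10.15, 9.88, 9.28, 8.85, 9.13 and 9.32 after MMS, where it was the least lowered member at 30, 60, 140 and 180 min. RPC31 read 9.83, 8.93, 8.01, 8.63, 9.07 and 9.49 after H2O2. Its values after MMS were 9.90, 9.04, 7.44, 6.97, 7.10 and 7.43, the deepest fall of the 10 from 60 min of MMS on, with 13.1% of its 0 min level left at 100 min and 18.1% at 180 min. The 3 messages of this complex therefore spanned 18.1% to 56.5% of 0 min at the end of the MMS course, against 78.9% to 82.0% at the end of the H2O2 course.

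RPC53 and RPC37 encode a dimer related to the general factor TFIIF, which acts in termination and in repeated initiation on the same gene. RPC53 read 9.43, 8.14, 7.56, 8.19, 8.47 and 8.93 after H2O2. After MMS it read 9.34, 8.84, 8.24, 8.13, 8.18 and 8.45. Its trough was deeper after H2O2, at 27.4% of 0 min, than after MMS, at 43.4%. RPC37 read 10.23, 9.43, 8.69, 9.09, 9.35 and 9.70 after H2O2 and 10.22, 9.73, 8.93, 8.63, 8.79 and 9.14 after MMS. It had the lowest share of its 0 min level among the members at 180 min of H2O2, 68.9%.

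RPC11 encodes the small subunit needed for cleavage of the nascent RNA and for termination. It read 10.85, 10.35, 10.17, 10.46, 10.59 and 10.88 after H2O2. After MMS it read 10.88, 10.38, 9.84, 9.57, 9.61 and 9.72. It was the least lowered member at every stressed H2O2 array, at 62.7% of 0 min at 60 min, and the 1 member above its own 0 min level at 180 min (102%). Its level at 100 min of MMS, 40.2%, lay within the range of the other members.

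The early H2O2 window was set against time 0 to ask how the messages stood in the first hour of oxidant. All 10 were lower at an adjusted p under 0.05 (limma, adjusted over 5449 genes), where 19.0% of all genes were called lower. The median log2 change was -1.38, against -0.04 over all genes. RPC82 was at -1.84 ± 0.33, adjusted p = 0.00462, RPC25 at -1.56 ± 0.44, adjusted p = 0.023, RPC53 at -1.54 ± 0.28, adjusted p = 0.00486 and RPC11 at -0.60 ± 0.18, adjusted p = 0.0314. RPC31, at -1.40 ± 0.48, adjusted p = 0.049, lay closest to the threshold, and the other 5 lay between -1.16 (RPC37) and -1.38 (RPC17). For all 10 both early arrays lay below both 0 min arrays, which held for 41.7% of all genes. The count of 10 became 4 without the 0 min MMS array, 3 without the 0 min H2O2 array and 3 without the 60 min H2O2 array, and 1 when the early window held 30 min only. Calls over all 5449 genes, in either direction, went from 1834 to 600, 585, 817 and 261 in the same settings.

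In the late H2O2 window the messages stood between time 0 and their early level. RPC53 was the 1 member called lower than time 0 (-0.86 ± 0.25, adjusted p = 0.0485), where 6.28% of all genes were called lower. The median of the 10 was -0.70 log2, against -0.06 over all genes. RPC17 was at -0.73 ± 0.24, adjusted p = 0.0666, RPC37 at -0.85 ± 0.29, adjusted p = 0.0766 and RPC11 at -0.22 ± 0.17, adjusted p = 0.37. All 3 late arrays lay below both 0 min arrays for 9 of 10, RPC11 being the exception (all genes 39.6%). The count of 1 was 0 without the 0, 100 or 140 min H2O2 array or the 0, 100, 140 or 180 min MMS array, 2 without the 180 min H2O2 array and 5 without the 30 or 60 min MMS array. Over all genes 839 were called in the main fit, in either direction. Without the arrays just named it was 9, 232 or 138 (H2O2), 6, 850, 516 or 791 (MMS), 871, and 1271 for either of the last. A p above the threshold therefore does not show that the messages had returned.

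The climb from the early to the late H2O2 window was called for RPC82 alone, which rose by 1.22 ± 0.30, adjusted p = 0.0354, where 4.31% of all genes were called higher. The other 9 were all higher late, between 0.32 (RPC37) and 0.89 (RPC34, adjusted p = 0.0703), and did not pass the test. For 8 of 10, all but RPC37 and RPC31, every late array lay above both early arrays (all genes 25.7%). The count of 1 was 0 without any of the 0, 30, 60, 140 or 180 min H2O2 arrays or the 0 or 140 min MMS array, and 4 without the 30 or 60 min MMS array. Over all genes 494 were called in the main fit, in either direction. Without the arrays just named it was 266, 85, 465, 129 or 147 (H2O2), 266 or 269 (MMS), and 965 for either of the last.

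In the early MMS window 6 of 10 members were called lower than time 0, where 14.3% of all genes were, with a median of -1.05 log2 against 0.02 over all genes. They were RPC31 (-1.62 ± 0.48, adjusted p = 0.0309), RPO31 (-1.35 ± 0.28, adjusted p = 0.00946), RPC82 (-1.21 ± 0.33, adjusted p = 0.0226), RPC17 (-1.20 ± 0.26, adjusted p = 0.011), RPC53 (-0.85 ± 0.28, adjusted p = 0.0424) and RPC11 (-0.76 ± 0.18, adjusted p = 0.0157). RPC25 was at -1.23 ± 0.44, adjusted p = 0.0546, RPC37 at -0.90 ± 0.32, adjusted p = 0.0544, RET1 at -0.78 ± 0.32, adjusted p = 0.0859 and RPC34 at -0.62 ± 0.30, adjusted p = 0.128. Both early arrays lay below both 0 min arrays for all 10 (all genes 38.3%). The window joins a small fall at 30 min with a larger one at 60 min, and the count of 6 was 10 without the 30 min MMS array, 1 without the 60 min one and 0 without either 0 min array. Over all genes 1802 were called in the main fit, in either direction, and 2664 and 421 without the 30 and the 60 min MMS array. Without the 0 min array of H2O2 or of MMS it was 351 or 459.

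In the late MMS window all 10 members were called lower than time 0, where 34.6% of all genes were called lower, and the count was 10 whichever single array was left out. The median was -1.50 log2 against 0.09 over all genes. RPC31 fell by 2.70 ± 0.44, adjusted p = 0.000366, to 15.4% of time 0. RPC25 was at -2.24 ± 0.40 (adjusted p = 0.000619), RPO31 at -1.96 ± 0.26 (adjusted p = 0.000124) and RPC17 at -1.78 ± 0.24 (adjusted p = 0.000133). The smallest falls were those of RPC34, at -1.10 ± 0.27, and RPC53, at -1.13 ± 0.25 (adjusted p = 0.00409 and 0.00242). RPC82, RPC37, RET1 and RPC11 lay between these, at -1.62, -1.37, -1.36 and -1.23. All 3 late arrays lay below both 0 min arrays for all 10 (all genes 39.1%).

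From the early to the late MMS window all 10 members were lower, and RPC11 was called (-0.48 ± 0.17, adjusted p = 0.0398), where 21.5% of all genes were called lower. RPC31 was at -1.07 ± 0.44, adjusted p = 0.068 and RPC25 at -1.01 ± 0.40, adjusted p = 0.0606, larger differences with a larger spread. The late arrays all lay below both early arrays for 4 of 10 (all genes 29.0%). The count of 1 was 8 without the 60 min MMS array, 2 without the 30 or 60 min H2O2 array, and 0 without the 0 or 140 min H2O2 array or any of the 0, 30, 100, 140 and 180 min MMS arrays. Over all genes 2648 were called in the main fit, in either direction. Without the arrays just named it was 3054, then 2755 for either, then 2362 or 2327 (H2O2) and 2362, 620, 2599, 1766 or 2046 (MMS).

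**Figure D2:**
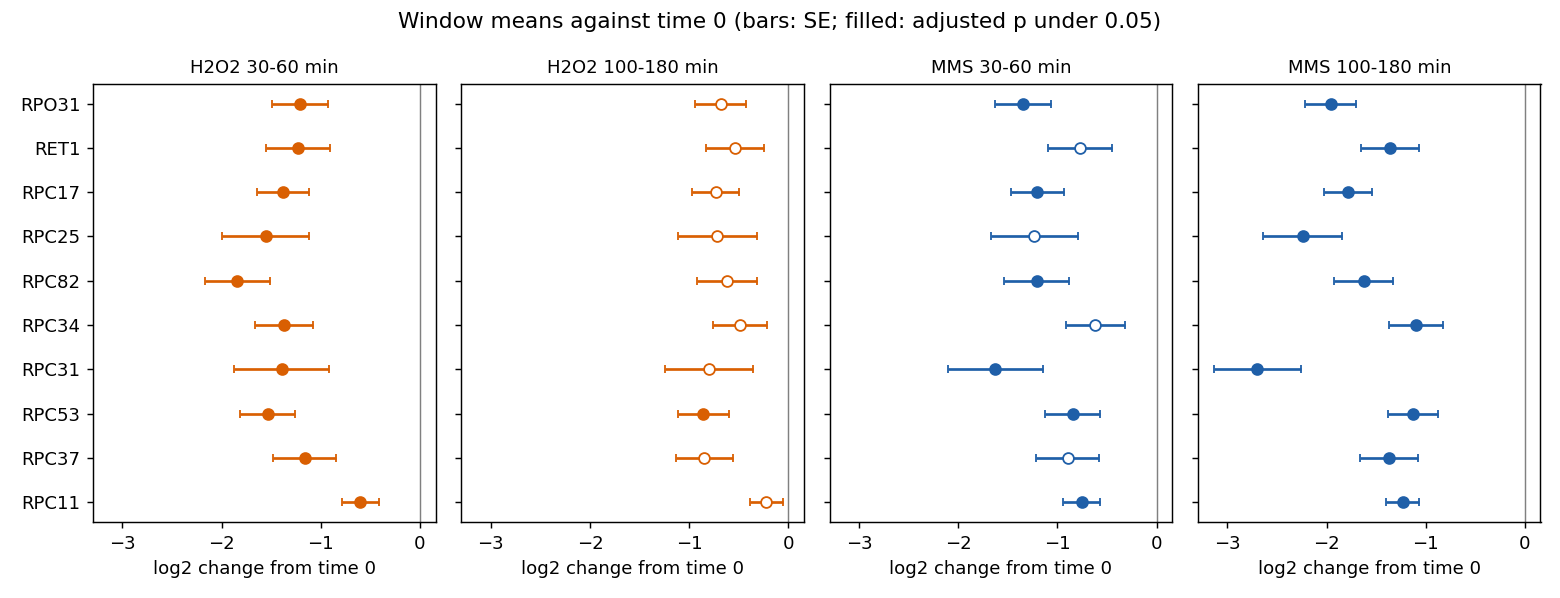
Log2 change of each subunit message from time 0 (x axis, mean of the window minus mean of the 2 arrays at 0 min, bars ± SE of the limma fit) in the 4 windows, with filled points at an adjusted p under 0.05. All 10 points are filled in the early H2O2 and late MMS panels, 6 in the early MMS panel and 1, RPC53, in the late H2O2 panel.

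The stresses were then compared at matched times, which asks where oxidant and alkylation differed. At 30 min the MMS signal was above the H2O2 signal for all 10 members, by 0.03 (RPC11) to 1.05 log2 (RPC82). At 60 min it was lower for 4 of 10, RPO31, RPC31, RPC11 and RPC17, and higher for the other 6. At 100, 140 and 180 min it was lower for all 10, with a median difference of -0.90, -0.94 and -1.10 log2. RPC31 held the largest difference at 180 min, -2.06, and RPC53 the smallest, -0.49. These differences set 1 array against 1 array, and the share of all genes at each time was not counted. Over the late window the median of all genes was 0.10 log2.

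Tested over windows, 0 of 10 members differed between MMS and H2O2 early by limma, with 2 at an unadjusted p under 0.05, where 8.13% of all genes were called in either direction. RPC34 was at 0.75 ± 0.30, adjusted p = 0.139 and RPC53 at 0.69 ± 0.28, adjusted p = 0.147. With time point as a replicate block RPC34, RPC53 and RET1 were called higher in MMS (adjusted p = 0.00738, 0.0131 and 0.0212). The block called 1000 of all 5449 genes, against 443 in the main fit. Its p-values rest on the spread of the MMS minus H2O2 difference among times, not among repeat cultures. The count of 0 became 1 higher without the 30 min H2O2 or the 60 min MMS array and 1 lower without the 30 min MMS array. Over all genes 443 were called in the main fit and 352, 184 and 890 without these arrays. In the late window 8 of 10 were called lower in MMS than in H2O2, where 31.3% of all genes were, with a median of -1.01 log2 against 0.10 over all genes. The count of 8 became 5 when the early window held 30 min only (late 60 to 180 min) and 5 when it held 30 to 100 min. Over all genes 3840 were called in the main fit, in either direction, and 3457 and 3387 with these windows. RPC31 was at -1.90 ± 0.39, adjusted p = 0.00172, RPC25 at -1.52 ± 0.36, adjusted p = 0.00353, RPO31 at -1.28 ± 0.23, adjusted p = 0.000815 and RPC11 at -1.01 ± 0.15, adjusted p = 0.000244. RPC53, at -0.27 ± 0.23, adjusted p = 0.298, and RPC37, at -0.52 ± 0.26, adjusted p = 0.0956, did not pass, and with the block both were called (adjusted p = 0.0342 and 0.000403). The block called 4106 of all genes there, against 3840 in the main fit. Of the early windows, both MMS arrays lay above both H2O2 arrays for 2 of 10, RPC53 and RPC34 (all genes 27.4%). For 8 of 10 every late MMS array lay below every late H2O2 array (all genes 34.0%).

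The change from the early to the late window itself differed between the stresses for 7 of 10 members, all toward lower levels in MMS, where 21.8% of all genes were called in that direction. RPC25 was at -1.85 ± 0.57, adjusted p = 0.0266, RPC82 at -1.64 ± 0.42, adjusted p = 0.0153, RPC34 at -1.37 ± 0.38, adjusted p = 0.0196 and RPC17 at -1.23 ± 0.34, adjusted p = 0.0189. RPC31 (-1.67 ± 0.62, adjusted p = 0.0517), RPC53 (-0.96 ± 0.36, adjusted p = 0.0517) and RPC37 (-0.79 ± 0.41, adjusted p = 0.138) did not pass, and with time point as a replicate block all 10 were called. The block called 2984 of all genes, against 2435 in the main fit. The count of 7 was 0 without the 60 min H2O2 array, 1 without the 30 min MMS array, and 4 without the 180 min H2O2 or the 140 min MMS array. Over all genes 2435 were called in the main fit, in either direction, and 1343, 1072, 1659 and 1655 without these arrays. The count was also 0 when the early window held 30 min only or 30 to 100 min. With these windows 17 and 0 of all 5449 genes were called, so this 0 says nothing of the subunits in particular.

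**Figure D3:**
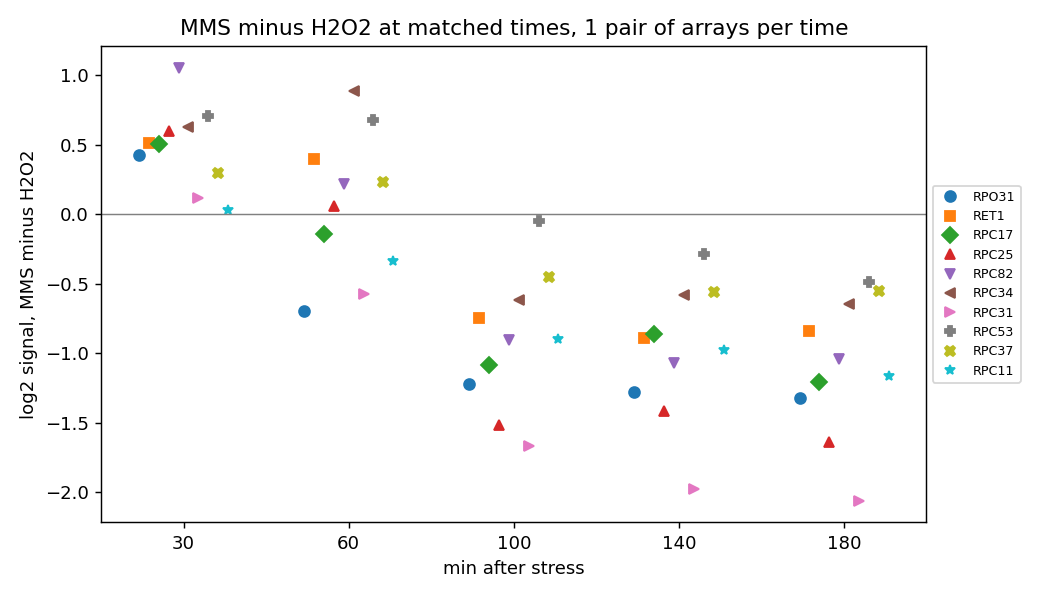
Difference in log2 signal between the MMS and the H2O2 array of the same time (y axis) for each of the 10 subunit messages, against minutes after stress (x axis, times evenly spaced), with 1 pair of arrays per time. All points lie above 0 at 30 min, they straddle 0 at 60 min, and all lie below 0 from 100 to 180 min.

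Across the 5 groups the mean level ran in the order time 0, late H2O2, early MMS, early H2O2 and late MMS for 4 members (RET1, RPC37, RPC25 and RPC17). For 3 members (RPO31, RPC31 and RPC11) early H2O2 and early MMS changed places. For RPC82 and RPC34 early H2O2 was the lowest group, as it was for RPC53, in which early MMS also stood above late H2O2. Where late H2O2 followed time 0, which was the case for every member but RPC53, the step was not called, and for RPC53 the step from time 0 to early MMS was. Steps between early MMS and early H2O2 were not called for any member, although with time point as a replicate block RET1 was called there, as were RPC34 and RPC53, in which these groups are not neighbours. Where late MMS followed early MMS, RPC11 was called and RPO31, RPC31, RPC82 and RPC34 were not. Where early H2O2 followed late H2O2 (RPO31, RPC31 and RPC11) the step was not called, nor was that from late H2O2 to late MMS in RPC53. With time point as a replicate block this last step was called. The steps between late H2O2 and early MMS and between early H2O2 and late MMS were not tested. These orders share the same 2 arrays at 0 min.

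The members followed each other over the 12 arrays. The Pearson correlation of a member with the mean of the other 9, each gene centred on its own mean, was 0.986 for RPC25, 0.981 for RET1 and 0.98 for RPC17, and lowest for RPC34 (0.901) and RPC53 (0.85). Outside the members, the 10 genes most like their mean profile were IPI3 (r = 0.997), a large ribosomal subunit assembly factor, ENP1 (0.994), a small subunit assembly factor, TMA16 (0.991), RRP6 (0.991), the nuclear exosome exonuclease, PWP2 (0.991), a processome component, BMT5, a ribosomal RNA methyltransferase, UTP5, FCF2, GRC3 and CMS1 (0.990 for each of the last 5). None of these 10 is in a list used here. An r above 0.9 was reached by 403 of the 5439 other genes and one under -0.9 by 318. The arrays of a course follow one another in time and are not independent, so these values describe the likeness of patterns and carry no test.

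Several subunits have counterparts in the other nuclear polymerases, and their changes are set side by side in the late MMS window, against the same 2 arrays at 0 min. The largest subunits were at -1.96 ± 0.26 (RPO31), -2.77 ± 0.40 (RPA190 of polymerase I) and -0.64 ± 0.19 (RPO21 of polymerase II) log2. The second largest were at -1.36 ± 0.29 (RET1), -3.32 ± 0.44 (RPA135) and -0.29 ± 0.10 (RPB2). Of the stalk, RPC25 was at -2.24 ± 0.40, RPA43 at -2.49 ± 0.37 and RPB7 at -0.41 ± 0.12, while RPC17 was at -1.78 ± 0.24, RPA14 at -1.37 ± 0.29 and RPB4 at 0.21 ± 0.09. The TFIIF-like pair of polymerase I, RPA49 and RPA34, was at -3.77 ± 0.52 and -2.87 ± 0.45, against -1.13 ± 0.25 for RPC53 and -1.37 ± 0.29 for RPC37. The cleavage subunits RPC11, RPA12 and RPB9 were at -1.23 ± 0.17, -2.87 ± 0.38 and -1.43 ± 0.14. All of these passed the test at an adjusted p under 0.05 by limma, and only RPB4 among them was higher.

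As lists, 7 of 8 polymerase I genes fell in the late MMS window (median -2.82 log2, all genes called lower 34.6%), the exception being the initiation factor gene RRN3 at 0.24 ± 0.20, adjusted p = 0.294. Of the polymerase II subunits 5 of 7 were called lower and RPB4 higher (median -0.41), and without the 0 min MMS array 3 were lower and 0 higher. The call of RPB4 was kept only without the 30, 60 or 100 min MMS array. In the early H2O2 window, where 19.0% of all genes were called lower, 7 of 8 polymerase I genes were called lower (median -1.45) and 1 of 7 polymerase II subunits, RPB9 (-0.63 ± 0.15, adjusted p = 0.0122, median -0.17). Without the 0 min H2O2, the 60 min H2O2 or the 0 min MMS array the polymerase I count was 1, 1 or 0, and without either of these H2O2 arrays that of polymerase II was 0. In the late H2O2 window 0 of 8 polymerase I genes passed by limma, also 0 at an unadjusted p under 0.05 (median -0.73), and 1 passed without the 30 or 60 min MMS array. Over all genes 6.28% were called lower in the late H2O2 window. For all 8 polymerase I genes every late H2O2 array lay below both 0 min arrays (all genes 39.6%). A count of 0 therefore does not show that these messages had returned. Whether the lists differ from the polymerase III subunits was not tested.

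The subunits that polymerase III shares with other polymerases also fell late after MMS. RPC40 and RPC19, shared with polymerase I, were lower by limma, at -2.29 ± 0.30, adjusted p = 0.000119 and -2.46 ± 0.35, adjusted p = 0.000165. All 5 subunits common to the 3 polymerases fell, with RPB5 at -2.97 ± 0.37, RPB8 at -2.21 ± 0.29, RPO26 at -2.04 ± 0.24, RPB10 at -1.83 ± 0.27 and RPC10 at -1.80 ± 0.24 log2. These counts, 2 of 2 and 5 of 5, were the same whichever array was left out. Over all genes 34.6% were called lower in this window. In the early H2O2 window, where 19.0% of all genes were called lower, RPC19 (-1.15 ± 0.38, adjusted p = 0.0417) and RPB8 (-1.03 ± 0.32, adjusted p = 0.0334) were called. Neither was called without a 0 min array, the 60 or 140 min H2O2 array or the 140 min MMS array. Without the 30 or 60 min MMS array 2 of 2 and 5 of 5 were called. Leaving out either also raised the calls over all genes, in either direction, from 1834 to 2235 of 5449.

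Most initiation factors of polymerase III were higher late after MMS. In the late MMS window 7 of 10 measured factors rose and 2 fell, where 40.3% of all genes were called higher and 34.6% lower (median 0.57 log2). TFIIIC, which binds the promoters inside transfer RNA genes, had 5 of 6 subunits called higher: TFC8 (1.14 ± 0.16, adjusted p = 0.000146), TFC1 (1.04 ± 0.14, adjusted p = 0.000153), TFC6 (0.96 ± 0.16, adjusted p = 0.000489), TFC3 (0.90 ± 0.18, adjusted p = 0.0012) and TFC7 (0.56 ± 0.16, adjusted p = 0.00766). TFC4 was at 0.15 ± 0.12, adjusted p = 0.286. TFIIIB, which recruits the polymerase, was mixed. Its specific parts BDP1 and BRF1 rose by 0.58 ± 0.12 (adjusted p = 0.00126) and 0.46 ± 0.14 (adjusted p = 0.012), and SPT15, the TATA-binding protein that all 3 polymerases use, fell by 0.59 ± 0.13. PZF1, the TFIIIA needed for the smallest ribosomal RNA, fell by 0.72 ± 0.09. Without the dimmest 25% of genes 7 factors were called higher and 1 lower. A factor left out by this filter is not counted. With each array left out in turn 5 to 7 factors were called higher and 2 lower.

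Array by array, BRF1 read 9.96, 9.67, 9.60, 9.87, 9.85 and 9.91 log2 at 0 to 180 min of H2O2 and 9.94, 9.86, 10.02, 10.11, 10.48 and 10.62 in the MMS course. TFC8 read 8.22, 8.08, 8.31, 8.30, 8.33 and 8.32 after H2O2 and 8.45, 8.53, 9.09, 9.40, 9.57 and 9.45 after MMS. PZF1 read 7.65, 6.80, 6.92, 7.11, 7.10 and 7.23 after H2O2 and 7.58, 6.82, 6.73, 6.81, 6.88 and 6.99 after MMS. PZF1 was thus below its 0 min level at every stressed array of both courses, while TFC8 was above it at every MMS array from 60 min on. In the early H2O2 window PZF1 was the 1 factor called (-0.76 ± 0.10, adjusted p = 0.00169; 2 were called without the 100 min MMS array), with a list median of -0.05, and BRF1 was at -0.31 ± 0.15, adjusted p = 0.131 and BDP1 at 0.01 ± 0.13, adjusted p = 0.951. The direct comparison in the late window called 8 of 10 factors higher in MMS than in H2O2 (all genes 39.2%) and PZF1 lower, beside 8 of 10 subunits lower. Without the dimmest 25% of genes 8 factors were called higher and 0 lower. The factor called lower was 0 without the 180 min H2O2 or the 100 or 140 min MMS array, and 2 without the 30 or 60 min H2O2 array.

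**Figure D4:**
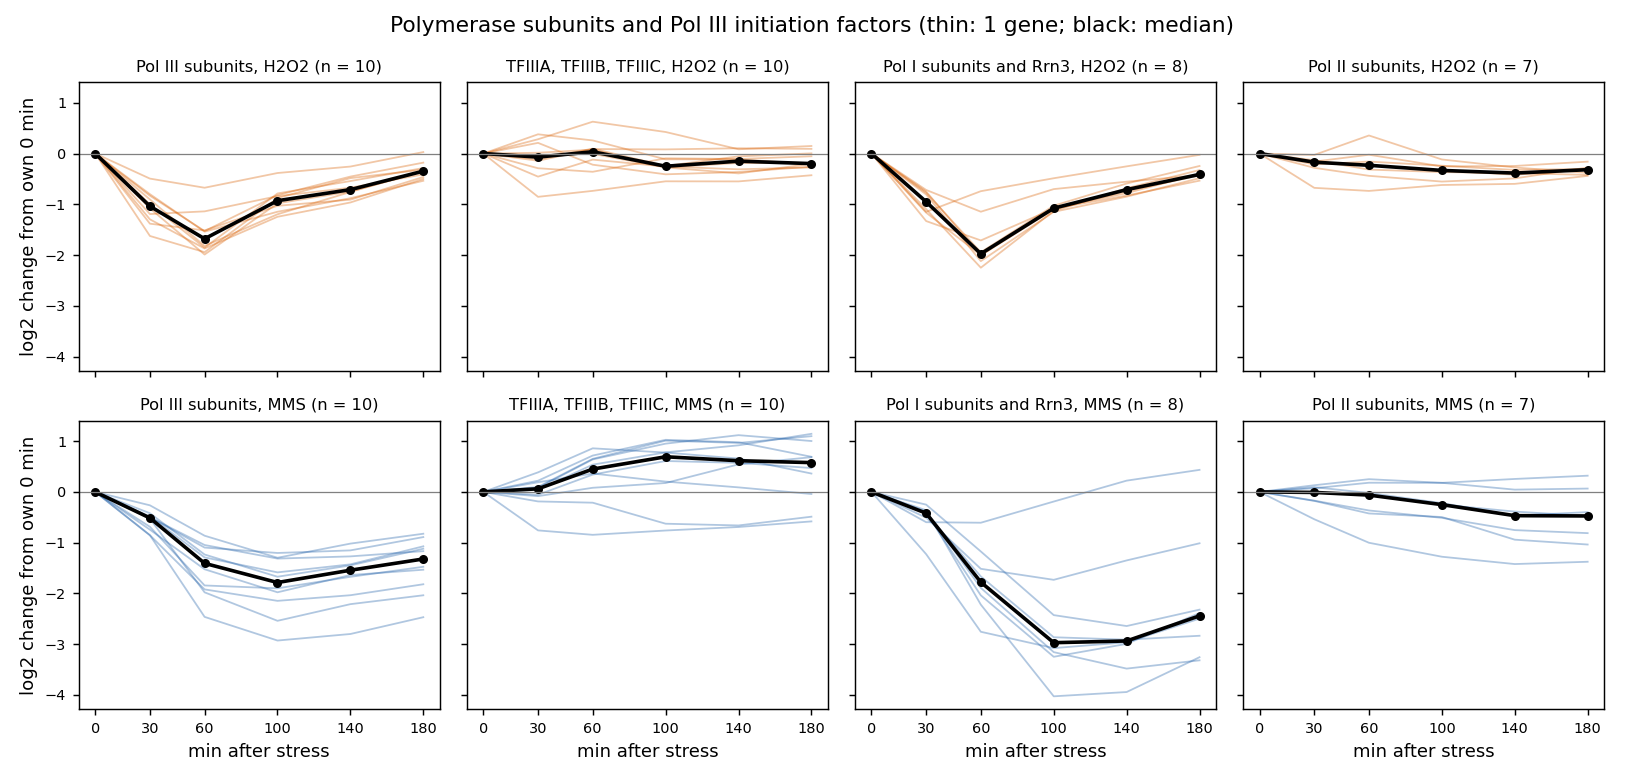
Log2 change relative to the course's own 0 min array (y axis) against minutes after stress (x axis), H2O2 above and MMS below, for the polymerase III subunits, the factors TFIIIA, TFIIIB and TFIIIC, the polymerase I subunits with RRN3, and the polymerase II subunits. Thin lines are genes and the black line their median. The median of the 10 polymerase III subunits at 100 min of MMS is -1.79 and that of the 10 factors 0.69.

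Among Maf1 and the enzymes that act on it or on the polymerase, 22 genes were measured, with calls in both directions. MAF1 rose in the early H2O2 window by 0.48 ± 0.10 log2, adjusted p = 0.0079, and was at 0.18 ± 0.09, adjusted p = 0.0974 in the late MMS window. KNS1, a kinase that phosphorylates Rpc53, read 6.67, 8.65, 8.06, 7.33, 7.27 and 7.04 after H2O2 and 6.84, 7.64, 8.24, 8.48, 8.52 and 8.75 after MMS. It rose by 1.60 ± 0.23 early after H2O2 and by 1.83 ± 0.21 late after MMS. TPK2, a catalytic subunit of protein kinase A, which phosphorylates Maf1, rose by 1.66 ± 0.18 and 1.80 ± 0.16 in the same windows, and its paralogue TPK3 fell, with log2 changes of -0.93 ± 0.19 and -0.75 ± 0.18. PPH3, the phosphatase subunit that acts on Maf1, fell too, with changes of -1.24 ± 0.16 and -1.05 ± 0.15. UBC9, the SUMO-conjugating enzyme, fell late after MMS by 1.11 ± 0.16. In all 3 rose and 4 fell in the early H2O2 window and 6 rose and 10 fell in the late MMS window. Over all genes 14.7% and 19.0% were called higher and lower in the first and 40.3% and 34.6% in the second, so that the list's counts lay near the background. Without the 0 min MMS array the list's counts were 2 and 2 early after H2O2 and 6 and 6 late after MMS. Without the 0 min H2O2 array 2 fell early after H2O2. These are message levels and say nothing of the phosphorylation of Maf1 or of the polymerase.

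Of 20 genes whose products bind, process or export new transfer RNAs, 10 fell and 2 rose in the late MMS window (median -0.44 log2), where 34.6% of all genes were called lower and 40.3% higher. LHP1, the La protein that binds the ends of new polymerase III transcripts, fell by 2.96 ± 0.37 (adjusted p = 9.71e-05). POP8 and POP3, subunits of RNase P, fell as well, with changes of -2.18 ± 0.28 and -2.12 ± 0.20, and so did TRL1, the transfer RNA ligase, at -1.53 ± 0.20. CCA1, which adds the CCA end, and POP7 were the 2 that rose, by 0.32 ± 0.10 and 0.33 ± 0.12. Without the 0 min MMS array 0 rose and without the 180 min MMS array 1 did. In the early H2O2 window 12 of 20 fell, beside 19.0% of all genes, and 0 rose (median -0.65), led by POP3 (-1.45 ± 0.21, adjusted p = 0.0023), TRZ1 (-1.22 ± 0.28, adjusted p = 0.0115), RPP1 (-1.17 ± 0.21, adjusted p = 0.00468) and POP6 (-1.13 ± 0.25, adjusted p = 0.00946), and the count was 4, 5 and 4 without the 0 min H2O2, the 60 min H2O2 and the 0 min MMS array.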

How the data were processed

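The labels describe 12 one-colour Affymetrix arrays, hybridised with biotinylated cRNA after poly(T) priming of total RNA. Values were deposited as log2 signals per probe set, from RMA per the submitters' processing notes; its version, and whether all arrays were normalized together, are not given in the sources used here. The table held 5900 probe sets, among them 184 controls. Of the rest 5498 had 1 gene, 0 several and 218 none in the platform annotation; 12 symbols were updated, and the brightest probe set of each of 47 genes with several was kept, giving 5449 genes with array medians between 9.06 and 9.20. No further scaling was applied. For arrays, their small number limits the precision.

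The 5 groups were modelled by limma 3.58.1 (R 4.3.3) over the 12 arrays (7 residual and 2.71 prior degrees of freedom), two-sided, with Benjamini-Hochberg adjustment over 5449 genes in each of 9 contrasts; a gene was called at an adjusted p under 0.05, and errors are the fit's SE. The fit was run on simulated data with independent noise in each array. Those data held no trend in time, so they cannot vouch for the p-values given here. The subunits, lists and windows were chosen with earlier results of these data known. Named genes were all 10 subunits, their counterparts in the other polymerases, MAF1, BRF1, BDP1 and PZF1, the called or 4 most changed genes of each list in the contrasts described, and the 10 genes closest in Pearson correlation; other genes named beside counts were chosen after their values were seen. Lists held the shared subunits, initiation factors, Maf1 and its enzymes, transfer RNA processing, both other polymerases, regulators chosen with the PAC and RRPE promoter elements in view, a treatment check and other cell states. A planned promoter search was not run, since no sequence was used here.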

Additional observations from a re-analysis of the deposited data

Results flagged for a closer look

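The change from the early to the late window differed between MMS and H2O2, by the interaction term of the limma fit, for RPO31 (-1.14 log2), RET1 (-1.28 log2), RPC82 (-1.64 log2), RPC34 (-1.37 log2), RPC25 (-1.85 log2), RPC17 (-1.23 log2) and RPC11 (-0.86 log2), where the value is the late minus early change of MMS minus that of H2O2. Adjusted p ranged from 0.0153 (RPC82) to 0.0323 (RET1). The calls rest on 12 arrays with time points as replicates, and without the 60 min H2O2 array 0 of the 7 calls were counted. Over all genes 1343 were called without that array, against 2435 with it. No group held enough arrays to look for a single outlying array.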

How the results depend on the processing

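The late fall after MMS was called for all 10 subunits under every alternative run. With each array left out in turn the number called was 3 to 10 for early H2O2 against time 0, 0 to 5 for late H2O2, 0 to 10 for early MMS, 10 to 10 for late MMS, 0 to 4 and 0 to 8 for late against early in H2O2 and MMS, 0 to 1 and 6 to 8 for MMS against H2O2 early and late, and 0 to 10 for the difference of late and early changes. It was 7 to 9 and 7 to 10 for the initiation factors late after MMS and in MMS against H2O2, counts added after seeing the data. Against the 0 min array of the same course 4 subunits were called in early H2O2, 0 in late H2O2 and 0 in early MMS. Over all 5449 genes that setting called 600, 6 and 351, against 1834, 839 and 1802 in the main fit. Late H2O2 also gave 0 with arrays centred on medians, with quantile normalization and without the dimmest 25% of genes. With an early window of 30 min only the counts were 1 (early H2O2), 4 (late H2O2), 0 (early MMS), 0 (H2O2 late against early), 4 (MMS late against early), 5 (MMS against H2O2, late) and 0 (difference of changes). In the same order 261, 817, 50, 87, 1602, 3457 and 17 of all genes were called. With 30 to 100 min they were 0 (late H2O2), 0 and 0 (late against early), 5 and 0. There 22, 16, 607, 3387 and 0 of all genes were called. With time point as a replicate block, which pairs the courses by time only, 3 were called early between the stresses, 10 late and 10 for the difference. Over all genes the block called 1000, 4106 and 2984, against 443, 3840 and 2435 in the main fit. The sign turned in values that were not called in the main fit, and the values of turned sign were not called either. Some other ends of the ranges below were called, with 1 array left in the early MMS window. For H2O2 late against early, leaving out single arrays gave ranges that crossed 0 of -0.054 to 0.68 (RPC37), and an early window of 30 min only gave -0.23 (RPC37), -0.12 (RPC31). For MMS late against early, leaving out single arrays gave ranges that crossed 0 of -0.58 to 0.015 (RPC53), -0.995 to 0.16 (RPC82). For MMS against H2O2 early, leaving out single arrays gave ranges that crossed 0 of -0.43 to 0.12 (RPC11), -0.21 to 0.57 (RPC17), -0.40 to 1.05 (RPC25), -1.03 to 0.58 (RPC31), -0.14 to 0.67 (RPC37), -0.67 to 0.40 (RPO31), and an early window of 30 min only gave 0.42 (RPO31), 0.12 (RPC31), 0.028 (RPC11), and an early window of 30 to 100 min gave -0.29 (RPC25), -0.24 (RPC17). Within these ranges lay -0.10 (RPC37 without H2O2 60 min), 0.23 (RPC31 without H2O2 30 min), -0.13 (RPC25 without H2O2 60 min). The cause of these shifts was not tested. The planned promoter motif search was not run. Signal over background was not given by the values used.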

Other observations

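PAC and RRPE are promoter motifs known from ribosome assembly and polymerase subunit genes of yeast. A list of 7 regulators drawn up with these motifs in view held TOD6, DOT6, STB3, SFP1, ABF1, REB1 and RAP1. It is not a list of PAC and RRPE binders only. Late after MMS 2 of the 7 (DOT6 and STB3) were called higher and 3 (TOD6, ABF1 and RAP1) lower. These counts lay near the share of all genes, where 40.3% were called higher and 34.6% lower. TOD6, a PAC-binding repressor, read 9.48, 7.08, 7.03, 8.28, 8.76 and 9.25 log2 at 0 to 180 min of H2O2 and 9.50, 8.11, 6.71, 6.03, 6.32 and 6.92 in the MMS course, and fell by 3.07 ± 0.41 in the late MMS window (limma, adjusted p = 0.000123). Its paralogue DOT6 read 8.42, 8.81, 8.76, 8.54, 8.75 and 8.74 after H2O2 and 8.61, 8.83, 8.98, 9.37, 9.55 and 9.59 after MMS, and rose by 0.99 ± 0.11 in that window (adjusted p = 6.67e-05). STB3, which binds RRPE, rose by 0.49 ± 0.11, and RAP1 fell by 0.72 ± 0.15. The message of TOD6 therefore moved with those of the polymerase III subunits (Pearson r = 0.968 with their mean profile over 12 arrays) and that of DOT6 against them (r = -0.745), as descriptions with no test.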
